A study of Mus musculus with 13 samples.

Results

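Proximal-only forelimb CTCF sites are the CTCF intervals that were called in proximal forelimb and in neither of the other wild-type CTCF lists of the series. They were chosen by the peak calls themselves: an autosomal interval of the proximal forelimb list counted when the distal forelimb list and the whole-limb list each had no CTCF interval within 1 kb of it. The rule took 13365 of 70418 autosomal proximal CTCF intervals (19%). For comparison, 9822 distal forelimb intervals met the mirror rule and are called distal-only sites, 16328 proximal intervals overlapped a distal interval but had no whole-limb interval within 1 kb, and 38135 lay in all 3 wild-type CTCF lists. The 11 lists of the series held 442678 autosomal intervals between them.

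All tissue came from mouse embryos at E12.5. Distal and proximal forelimbs were wild-type CD1, and CTCF was profiled in both, RAD21 and SMC1 in the distal part. Whole forelimbs and hindlimbs were pooled from wild-type B6CBAF1 embryos for a CTCF and a RAD21 library, so that this pool also holds proximal forelimb tissue. The remaining CTCF libraries came from HoxD alleles, each homozygous, bred by crossing heterozygous carriers, and of the same B6CBAF1 background: delHoxd(8-13)d11lac, delHoxd(1-13)d9lac and delHoxd(attP-rel5)d9lac in pooled forelimbs and hindlimbs, and delHoxd(8-13)rXII in forelimbs only, where the chromatin was tagged by ChIPmentation. A RAD21 library of delHoxd(8-13)rXII came from pooled limbs. Each group was 1 library, so a range in brackets after a share is a 95% Wilson interval, which covers counting error only, and no difference between tissues was tested. Between forelimb parts and whole limbs, tissue, strain and library cannot be told apart. The lists hold no expression values, so the dissected parts could not be checked against marker genes, and the read depth behind them is unknown. The CTCF lists differed in length, from 70418 and 66758 autosomal intervals in the proximal and distal forelimb to 42202 in the whole limb.

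CTCF is a DNA-binding protein with many zinc fingers, and its motif has a direction. Cohesin, whose subunits include RAD21 and SMC1, extrudes chromatin loops and is often held at CTCF sites, where it helps to set the borders of topological domains. In the limb bud the proximal part gives rise to the arm and the distal part to the digits. Many CTCF motifs of the mouse genome lie in short interspersed repeats, which carried a CTCF motif to new places as they copied themselves.

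The sequences below show what the strongest and best supported proximal-only sites look like at the DNA level. The most frequent base at each position of a 19-bp CTCF matrix, learned from the strongest sites of all 3 wild-type CTCF lists, reads
CTCF matrix: TGGCCACCAGGGGGCGCCA
and in the sites the best match to it is in capitals, with 5 flanking bases on each side in lower case. They are read 5′ to 3′ on the strand of the match, from RefSeq's GRCm38.p6 (mm10).
Cyp7b1 intron, chr3:18211742-18211770, plus strand: attcaTTGCCAGCAGATGCCACTAcctga
Fstl1 intron, chr16:37812616-37812644, minus strand: tatatCTGTCAATAGGTGGCAATCtctct
Snapc2 promoter, chr8:4254178-4254206, plus strand: ggactAGTCCAGGAGAGGGAGCAGtagca
Trdn internal promoter, chr10:33198488-33198516, plus strand: ctggtCTACCAGTAGGGGGCCCTAttgga
Upstream of Rapgef5, chr12:117330592-117330620, minus strand: tgctgTGGCCAACAGAGGGCAGTAgatcc
Downstream of Zfp619, chr7:40072667-40072695, plus strand: tcctcTGTCCTCCAGATGGCACCCttgcc
Downstream of Tm2d1, chr4:98331916-98331944, plus strand: tttgtAGGCCAGAAGAGGGCATCAgatct
Rora intron, chr9:68960861-68960889, plus strand: gaaggAATCCAGAAGAGGGCGTTGgatcc
Clk2 internal promoter, chr3:89171560-89171588, plus strand: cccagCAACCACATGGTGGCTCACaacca
Other strong sites held no match that passed the threshold, and the bases around their summits are shown on the plus strand.
Downstream of Adprhl2, chr4:126314705-126314733: tagagggcgctgtgctgtgcagaaacgtc
Upstream of Sox9, chr11:112371438-112371466: atccccactgcgcccctcaagtgagtgat

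Proximal-only sites were weak peaks. Their −log10 q in the proximal list, the deposited strength of a peak, ran from 1.3 to 27.1 with a median of 4.02 (quartiles 2.63 and 5.81), against a median of 33.69 over the other proximal intervals and 4.32 over the distal-only sites. The median fold enrichment was 2.88, against 6.88 over the other proximal intervals, and the median width was 255 bp. Of the 13365 sites, 8808 (65.9%) lay below a −log10 q of 5 and 643 (4.81%) reached 10. These values come from the list the rule was applied to and are a description. Among all proximal intervals, the share that was proximal-only was 79.5% below a −log10 q of 2, 62.5% from 3 to 5, 24.6% from 7 to 10, 2.24% from 15 to 20 and 0.065% (23 of 35389) at 20 and over. The median gap to the nearest distal interval was 15054 bp, and to the nearest whole-limb interval 24914 bp. Just outside the rule, 300 proximal intervals without a whole-limb interval had a distal one 501 to 1000 bp away and a median −log10 q of 4.19, and just inside it, 682 sites with the nearest distal interval 1001 to 2000 bp away had a median of 5.19.

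**Figure D1:**
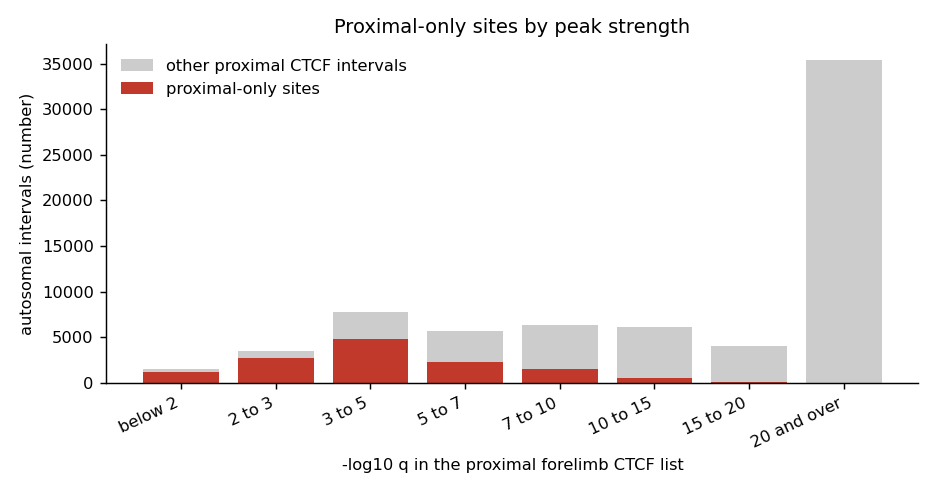
Number of autosomal proximal CTCF intervals (vertical axis; full bar height) by their −log10 q (horizontal axis), with proximal-only sites in red and the other intervals in grey. Proximal-only sites make up 79.5% of the weakest bar and 23 of the 35389 intervals in the strongest.

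Whole-limb RAD21 was rare at these sites. A RAD21 interval overlapped 640 of them (4.79%, 4.44 to 5.16), against 34.1% of all autosomal proximal CTCF intervals, 9.77% (9.33 to 10.2) of the sites of both forelimb parts without a whole-limb CTCF peak, and 56.2% (55.7 to 56.7) of the sites in all 3 CTCF lists. Distal-only sites had almost the same share, 4.67% (4.27 to 5.11), and the intervals overlap. The rule left out sites with a whole-limb CTCF peak, and this RAD21 list is from the same kind of limb pool. The gaps to all proximal intervals and to the sites of all 3 lists are thus partly set by the rule. The sites of both forelimb parts and the distal-only sites share this exclusion. The RAD21 peaks themselves were low, with a median −log10 q of 4.27 at proximal-only sites against 26.73 at the other proximal intervals, and 66 of the 640 reached 10. Their summits lay a median of 53 bp from the CTCF summit, against 16 bp at the other proximal intervals.

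The share with RAD21 varied little with the strength of the CTCF peak over most of its range. Between 3.39% and 5.14% of the proximal-only sites had RAD21 in each strength range below a −log10 q of 10. The share was 7.36% (5.43 to 9.9) from 10 to 15, 10.0% (5.35 to 17.9) from 15 to 20, and 26.1% (6 of 23 sites) at 20 and over. The interval of this last share reaches up to 46.5% and overlaps that of the 15 to 20 range, and the intervals of the 10 to 15 and 15 to 20 ranges overlap some of those below 10. Sites of both forelimb parts without a whole-limb peak had more in every range below 10, for example 9.09% (7.91 to 10.4) against 5.1% (4.51 to 5.75) from 3 to 5. From 10 to 20 the intervals of these groups overlapped, at 8.27% (7.4 to 9.23) against 7.36% and 10.6% (9.25 to 12.0) against 10.0%. Proximal-only sites with RAD21 had nearly the same CTCF strength as those without, with a median −log10 q of 3.93 against 4.02.

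**Figure D2:**
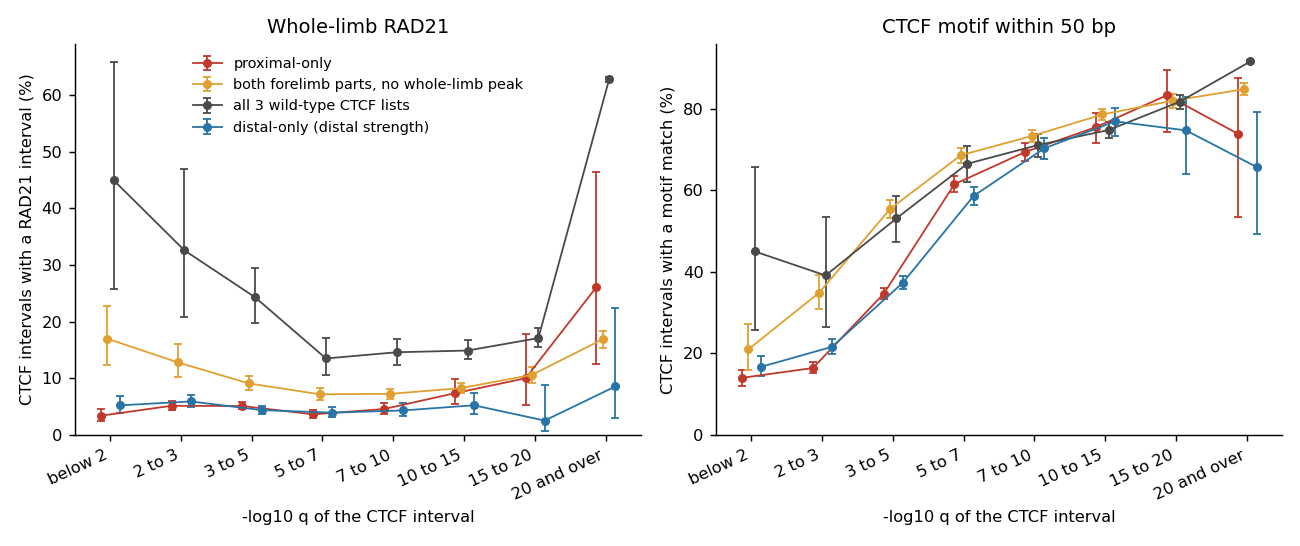
Share of CTCF intervals with a whole-limb RAD21 interval (left) and with a CTCF motif within 50 bp of the summit (right), by the −log10 q of the interval, for 4 groups of sites; bars are 95% Wilson intervals. Distal-only sites are placed by their strength in the distal list. Proximal-only sites stay between 3.39% and 5.14% for RAD21 below 10, while their motif share climbs from 14% to 83.3% in the range from 15 to 20.

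Proximal-only sites that carried RAD21 less often held a CTCF motif. A match was present at 144 of the 640 with RAD21 (22.5%, 19.4 to 25.9) and at 40.7% (39.8 to 41.5) of the 12725 without. Sites in both forelimb parts but without a whole-limb CTCF peak showed the same order, 57.3% (54.8 to 59.7) against 74.0% (73.3 to 74.7). Over all other proximal intervals the order was the opposite, 89.0% with RAD21 and 78.6% without. These last 2 groups also differed in CTCF strength, with a median −log10 q of 110.19 against 16.26, and were not compared at equal strength. The proximal-only sites with RAD21 lay farther from gene starts, a median of 103383 bp from the nearest protein-coding transcription start site (TSS) against 60797 bp. The group also held more promoters, 11.7% (9.45 to 14.4) against 7.8% (7.34 to 8.27).

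Over all proximal-only sites, a motif match lay within 50 bp of the summit at 5319 (39.8%, 39.0 to 40.6), against 74.7% of all proximal intervals and 43.9% (42.9 to 44.9) of distal-only sites. The threshold was set so that 5% of windows 2 kb away pass. The motif share rose with strength from 14% (12.1 to 16.0) below a −log10 q of 2 to 34.6% from 3 to 5, 69.4% from 7 to 10 and 75.5% (71.6 to 78.9) from 10 to 15. In this last range the sites of all 3 lists had 74.8% (72.8 to 76.8). Where proximal-only sites had a match it scored lower, with a median of 12.71 bits against 16.41 in the sites of all 3 lists, and it lay a median of 22 bp from the summit against 11 bp. A CpG, the dinucleotide at which DNA methylation can affect CTCF binding, was inside 28.0% of the matches at proximal-only sites and 43.6% of those at sites of all 3 lists. The matrix was learned from the strongest sites of all 3 lists, so higher scores there are partly built in. The sites with a match also differed in strength, with a median −log10 q of 5.26 against 78.72. Score, distance and CpG were not compared at equal strength.

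Most proximal-only sites were in repeats. The summit was repeat-masked in the reference at 9311 sites (69.7%, 68.9 to 70.4), against 36.2% of all proximal intervals, 62.4% (61.4 to 63.3) of distal-only sites and 19.6% (19.2 to 20.0) of the sites in all 3 lists. The share fell with strength, from 85.7% below a −log10 q of 2 to 38.3% (34.3 to 42.5) from 10 to 15. The other proximal intervals had 74.3% and 40.0% (38.7 to 41.3) in these ranges. From 3 to 5 the masked share was 74.7% at proximal-only sites and 57.6% at the other proximal intervals. Over whole lists it was 33.4% in the distal forelimb, 21.8% in whole-limb CTCF and 21.2% in whole-limb RAD21.

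A single word, nearly always in repeats, led the motif matches. Over the 12 bases at positions 4 to 15 of the matrix, 1732 of the 5319 matches (32.6%) at proximal-only sites read CCAGAAGAGGGC, the form seen in the Tm2d1 and Rora sites above, and 1635 of these sites had a masked summit. This word was picked because it was the most frequent at these sites. It made up 33.0% of the matches at distal-only sites, 31.0% at sites of both forelimb parts without a whole-limb peak and 11% at sites of all 3 lists. The last contrast was smaller at equal strength. The word was at 22.8% of proximal-only sites and 17.4% of the sites of all 3 lists from 5 to 7. From 10 to 15 these shares were 20.0% and 18.2%, and from 15 to 20 14.4% and 21.4%. At 20 and over, where 85.9% of the sites of all 3 lists lie, 8.36% of those had the word. The autosomes hold 48355 copies of the word on both strands, of which 99.6% are masked. Proximal CTCF intervals contained 24.5% of the copies and proximal-only sites 5.11%. The next most frequent words were CCACATGGTGGC, as in the Clk2 site, with 439 matches (8.25%, against 0.435% at sites of all 3 lists), and CCAGAAGAGGGA with 232 (4.36% against 0.606%). In all, 1249 different words occurred at proximal-only sites, 868 of them a single time.

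Whole-limb RAD21 was not called at any proximal-only site with the leading word. None of the 1732 proximal-only sites with CCAGAAGAGGGC overlapped a whole-limb RAD21 interval, which allows a share of up to 0.173% when 3 counts are taken as the limit for a count of 0 and 0.221% by the upper Wilson bound, while 144 of 3587 sites with another word did (4.01%, 3.42 to 4.71), and 496 of 8046 sites with no match (6.16%, 5.66 to 6.71). Distal SMC1 was called at 3 of the 1732 (0.173%). The leading word also had no RAD21 overlap at 1420 distal-only sites, 1.09% (0.802 to 1.48) at 3666 sites of both forelimb parts without a whole-limb peak and 17.2% (16.0 to 18.4) at 3742 sites of all 3 lists. There, matches with another word had RAD21 at 63.1% (62.6 to 63.7). The sites of all 3 lists with the leading word were weaker, with a median −log10 q of 33.68 against 78.72 over all matches of that set. They were not compared at equal strength. Repeat masking went with a lower RAD21 share. Over all proximal-only sites, RAD21 was at 3.78% (3.41 to 4.19) of masked summits and 7.1% (6.35 to 7.94) of unmasked ones. The unmasked sites were also stronger, with a median −log10 q of 5.23 against 3.6, and were not compared at equal strength. Proximal-only sites with another word and a masked summit had RAD21 at 1.45% (0.984 to 2.13), against 4.01% over all sites with another word. Masked sites with no match had 5.49% (4.94 to 6.1), against 6.16% over all sites with no match. The masked sites are 5952 of those 8046, so these 2 shares are not independent.

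The distal forelimb lists held cohesin at few of these sites, in a tissue where the sites have no CTCF peak by the rule. RAD21 of the distal forelimb overlapped 28 sites (0.21%, 0.145 to 0.303), against 21.9% of all proximal intervals, and SMC1 overlapped 89 (0.666%, 0.542 to 0.819), against 29.9%. RAD21 of delHoxd(8-13)rXII limbs overlapped 45 (0.337%, 0.252 to 0.45), against 20.8%. Distal-only sites had 0.367% (0.265 to 0.507) for distal RAD21 and 0.764% (0.61 to 0.956) for distal SMC1, and both intervals overlap those of the proximal-only sites.

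The 5 proximal-only sites that were in all 3 wild-type cohesin lists are described here, a choice made after their values were seen. The promoter of Fzd1, a Wnt receptor, had a CTCF −log10 q of 5.09 with 20.23 for whole-limb RAD21, 9.13 for distal RAD21 and 7.87 for distal SMC1. The promoter of Pdss2, an enzyme of coenzyme Q synthesis, had 5.23 for CTCF and 20.77, 2.34 and 4.86 for the same cohesin lists. The promoter of Pex3, a gene of peroxisome assembly, had 4.12 for CTCF and 9.53, 7.61 and 4.0. The site in Ankrd42 had 8.3 for CTCF and 9.7, 8.56 and 5.08, and it alone of these held a motif match, at 13.93 bits. A site in Them7 completed the group, with 3.69 for CTCF and 32.83 for whole-limb RAD21. Strengths of different lists are not on a common scale. The highest whole-limb RAD21 value at any proximal-only site was 42.21, 10791 bp before Tfap2a, a transcription factor of surface ectoderm, where CTCF had 7.61 and no motif match.

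The mutant lists were not used by the rule, but they come from limbs of the same background as the whole-limb CTCF list, whose peaks it excluded. The gaps to all proximal intervals are thus partly set by the rule. At least 1 of the 4 mutant CTCF lists had an interval at 2445 proximal-only sites (18.3%, 17.6 to 19), against 76.2% of all proximal intervals. Under the same exclusion, sites of both forelimb parts had 73.9% (73.2 to 74.6) and distal-only sites 23.3% (22.5 to 24.2). The longest mutant list gave most of these. The delHoxd(8-13)d11lac list, with 59369 autosomal intervals, overlapped 2127 sites (15.9%, 15.3 to 16.5), against 74.5% of all proximal intervals. The delHoxd(1-13)d9lac list overlapped 329 (2.46%, 2.21 to 2.74), against 53.2%. The delHoxd(attP-rel5)d9lac list overlapped 307 (2.3%, 2.06 to 2.57), against 56.3%. The delHoxd(8-13)rXII list, with the fewest autosomal intervals (35091), overlapped 131 (0.98%, 0.827 to 1.16), against 45.0%. By number of mutant lists, 10920 sites were in none, 2056 in 1, 335 in 2, 48 in 3 and 6 in all 4.

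Strong proximal-only sites were often called again in the d11lac limbs. The share with a delHoxd(8-13)d11lac interval rose from 1.86% (1.24 to 2.77) below a −log10 q of 2 to 23.9% from 5 to 7, 51.3% (47.1 to 55.6) from 10 to 15 and 73.9% (53.5 to 87.5) at 20 and over. Distal-only sites, placed by their strength in the distal list, had 52.4% (48.3 to 56.6) from 10 to 15, and the intervals overlap. Sites of both forelimb parts without a whole-limb peak had 81.4% (80.1 to 82.7) in that range. Sites found again in mutant limbs more often held a motif, 65.3% (63.2 to 67.3) with 1 mutant list against 34.1% (33.2 to 35) with none, and fewer lay in repeats, 40.5% against 76.4%. They were also stronger, with a median −log10 q of 6.05 against 3.6, and were not compared at equal strength.

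**Figure D3:**
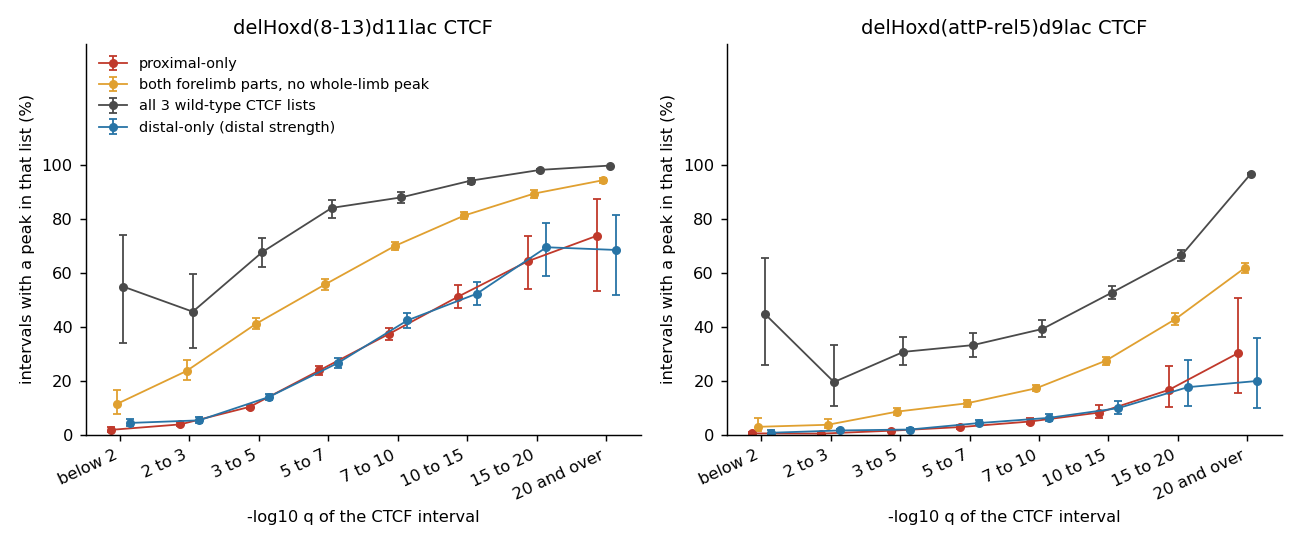
Share of CTCF intervals with an interval in the delHoxd(8-13)d11lac (left) and delHoxd(attP-rel5)d9lac (right) CTCF lists, by −log10 q, for 4 groups of sites; bars are 95% Wilson intervals and distal-only sites are placed by their distal strength. From 10 to 15, proximal-only and distal-only sites lie close together on the left (51.3% and 52.4%), below the sites of both forelimb parts (81.4%).

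The 6 sites called in all 4 mutant lists had moderate strength in the proximal forelimb. The site 185899 bp upstream of Rapgef5, a guanine nucleotide exchange factor, had a −log10 q of 15.78 in the proximal list and 34.84 in delHoxd(8-13)d11lac. Its motif, in a masked sequence, scored 19.47 bits, the highest of the sequences shown, and the nearest distal interval was 2939 bp away. The site 554939 bp downstream of the Zfp619 TSS had 11.73 in the proximal list and 17.53 in delHoxd(8-13)d11lac, with whole-limb RAD21 at 6.81. The site near Tm2d1 had 11.73 and 24.18. The others lay in Nrcam, a neural cell adhesion gene (10.11 and 15.52), in Rock1, a kinase of the actin cytoskeleton, near Usp14 (7.02 and 19.01), and near Zfp985 (6.12 and 14.38). In all 6 the delHoxd(8-13)d11lac value was higher than the proximal forelimb value, but q values of lists of different depth are not on a common scale.

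Proximal-only sites were at promoters less often than proximal intervals as a whole. The summit was within 1 kb of a TSS at 1067 sites (7.98%, 7.54 to 8.46), against 14.6% of all proximal intervals, and intergenic at 6439 (48.2%, 47.3 to 49.0), against 39.8%. A further 5544 (41.5%, 40.6 to 42.3) were in introns, against 41.3% of all proximal intervals, 97 in coding exons, 103 in UTRs and 115 in other exons. The median distance to the nearest protein-coding TSS was 62183 bp, against 28531 bp for the other proximal intervals and 57211 bp for distal-only sites, and 40.5% (39.7 to 41.3) of the sites were over 100 kb away. This moved with strength: the promoter share was 4.36% below a −log10 q of 2 and 14% from 10 to 15, where the other proximal intervals had 15.6%. Promoter sites had RAD21 more often than intergenic ones, 7.03% (5.64 to 8.72) against 5.02% (4.51 to 5.58), and were in a mutant CTCF list more often, 33.6% (30.9 to 36.5) against 13.4% (12.6 to 14.2). They were also stronger, with a median −log10 q of 5.23 against 3.6.

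**Figure D4:**
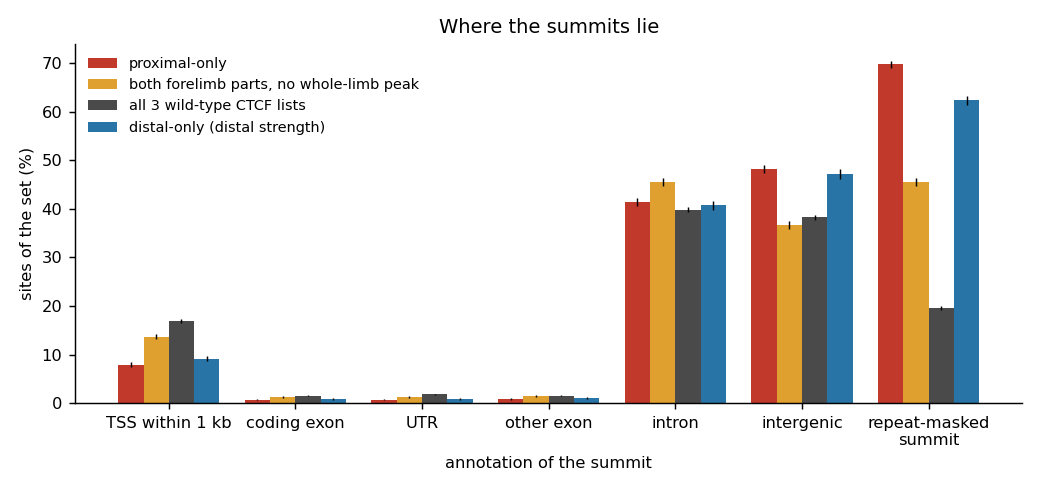
Share of sites (vertical axis) by the annotation of the summit, and share with a repeat-masked summit, for 4 groups; bars are 95% Wilson intervals. Proximal-only sites have the lowest promoter share (7.98%) and the highest repeat share (69.7%) of the groups drawn. The groups differ in peak strength. In the −log10 q range from 10 to 15 the repeat share was 38.3% at proximal-only and 43.8% at distal-only sites. It was 42.6% at sites of both forelimb parts and 36.4% at sites of all 3 lists.

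The strongest proximal-only site near a gene lay 6984 bp downstream of the TSS of Adprhl2, an ADP-ribose hydrolase, at 126314574 to 126314895 of chromosome 4. Its −log10 q was 24.71 and its fold enrichment 4.51. It had no RAD21, but delHoxd(8-13)d11lac (13.64) and delHoxd(attP-rel5)d9lac (7.29) had CTCF there. The second, in an intron of Cyp7b1, an oxysterol hydroxylase, had 24.69 at 18211585 to 18211898 of chromosome 3. It combined a motif of 16.58 bits, whole-limb RAD21 (7.17) and a delHoxd(8-13)d11lac peak (14.41), and the nearest distal and whole-limb CTCF intervals were 25285 and 33418 bp away.

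The site in an intron of Fstl1, a secreted follistatin-like protein, was in more of the other lists than any of the 15 strongest sites near a TSS. At 37812458 to 37812797 of chromosome 16 its CTCF −log10 q was 24.17, with whole-limb RAD21 at 12.42 and CTCF in delHoxd(8-13)d11lac (9.88), delHoxd(1-13)d9lac (6.13) and delHoxd(attP-rel5)d9lac (10.05). It lies close to the limit of the rule, since distal and whole-limb CTCF intervals were 1583 and 1559 bp away. The Snapc2 promoter site (23.93, at 4254074 to 4254350 of chromosome 8) was in no mutant list and had no cohesin, although its motif scored 12.2 bits. Snapc2 encodes a subunit of a complex that activates small nuclear RNA genes.

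Others of the strongest sites within 50 kb of a TSS were near Rere, a nuclear corepressor (23.06), Nemf (22.19), Zfat (22.13), Dmrt2, a transcription factor of somite development (21.92), Zfp949 (20.4), Me1, the cytosolic malic enzyme (20.33), Heg1 (19.99), Vmn1r20, a vomeronasal receptor (19.56), Strn (19.52), Tgfbrap1 (19.25) and Hrh1, the histamine H1 receptor (18.78). Of these 11, only the Tgfbrap1 site, which lies in an intron of Fhl2, had whole-limb RAD21 (7.9). Distal SMC1 was listed at the Nemf (4.21) and Zfp949 (2.31) sites. All but the Me1 site had a delHoxd(8-13)d11lac peak, from 4.91 at Rere to 20.94 at Strn.

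The 10 strongest sites with RAD21 were those of Cyp7b1, Fstl1 and Tgfbrap1 and 7 others. The site 127727 bp from Stk31 had a CTCF −log10 q of 24.35 and the highest RAD21 value of this group, 20.35, but no motif match. The site in the Hmgb1 gene, 119847 bp from Katnal1, had 22.64 for CTCF and 5.22 for RAD21. Introns of Lrp2, an endocytic receptor (22.02 and 8.89), Nav3, a microtubule-binding protein (20.07 and 13.41), Bbx (18.71 and 2.85) and Csn1s2a, a milk casein gene (17.05 and 3.21), held further ones, and the site 235445 bp from Mctp2 had 18.67 and 8.88. Each of these 7 had a delHoxd(8-13)d11lac peak.

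The strongest promoter sites, apart from Snapc2, were at an internal start of Trdn, the muscle protein triadin (18.37), at Rph3al (18.27), at Igf1r, the receptor of insulin-like growth factor 1 (17.98), at an internal start of Cyfip1 (17.86), and at an internal start of Clk2, a kinase of splicing factors (17.05). The Trdn site was called in 3 mutant lists, with 14.06 in delHoxd(8-13)d11lac, 3.49 in delHoxd(8-13)rXII and 4.93 in delHoxd(1-13)d9lac, and its motif scored 16.89 bits. The Igf1r and Clk2 sites were in no mutant list, and Igf1r had a low distal SMC1 peak (3.04). A further 4 sites counted as promoters through noncoding genes or pseudogenes, the nearest protein-coding genes being Tcstv1 (20.22), Vmn1r20 (19.56), Dapk1 (17.71) and Zfp536 (17.05). None of these promoter sites had whole-limb RAD21.

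A strong site lay in the gene desert before Sox9, the master regulator of cartilage, and is named because of its support in mutant limbs, seen before it was chosen. At 112371271 to 112371618 of chromosome 11, 410772 bp upstream of the Sox9 TSS, its −log10 q was 23.71, and delHoxd(8-13)d11lac (13.27), delHoxd(1-13)d9lac (5.54) and delHoxd(attP-rel5)d9lac (6.22) had CTCF there. It held no motif match and no RAD21, and the nearest distal and whole-limb CTCF intervals were over 33 kb away, at 33351 and 33398 bp.

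Gene neighbourhoods were counted as protein-coding genes with a site within 50 kb of the TSS. A proximal-only site was near 9691 of 20807 autosomal genes (46.6%) and a distal-only site near 8045 (38.7%). Genes of a cluster share sites, so the counts of genes in a list are not independent, and the number of different sites is given where it matters. A list is set beside these background shares and was not tested. Counted per site, proximal-only sites were at most 20.4% of the proximal intervals near a list's genes, at HoxD. Fewer proximal-only sites (45.6%) than proximal intervals (60.0%) lay within 50 kb of a protein-coding TSS, predicted genes left out. The share near genes was thus lower than the 19% over all autosomes. Of the 42285 proximal intervals that near a TSS, 6095 were proximal-only. This count is the near-gene reference below.

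For proximal limb patterning, 10 of 23 genes (43.5%, 25.6 to 63.2) had a proximal-only site and 10 had a distal-only site. The strongest lay 44748 bp from Tbx15, a T-box gene, inside Wars2 (15.41), and 17942 bp from Shox2, a homeobox gene of the upper limb, in an intron of Rsrc1 (15.16). The Shox2 site held a motif of 9.72 bits in a masked sequence and a delHoxd(8-13)d11lac peak (7.76), and the nearest distal CTCF interval was 44057 bp away. A site 756 bp before Pkdcc, a secreted kinase gene, had 7.65, with peaks in delHoxd(8-13)d11lac (6.87) and delHoxd(1-13)d9lac (7.37). Sites at Meis1 (3.32), Meis2 (3.1) and Pbx3 (3.1), homeobox genes of the proximal limb, were weak.

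For distal limb patterning, 9 of 27 genes (33.3%, 18.6 to 52.2) had a proximal-only site and 20 (74.1%) a distal-only site, from 9 and 19 different sites. The background share for proximal-only sites, 46.6%, is inside that interval. Of the 27 genes, 14 had more distal-only than proximal-only sites, 2 had more proximal-only sites and 11 had equal numbers. Shh, the signal of the posterior limb bud, and Lhx9 each had 2 distal-only and no proximal-only sites, whereas Sall4, a zinc-finger gene of the limb, had 2 proximal-only and no distal-only sites and Msx2, a homeobox gene, had 1 and none. Bmp7 had the strongest proximal-only site of this list (14.04), in its intron 39213 bp from the TSS, beside 2 distal-only sites.

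At HoxD and its flanks, 11 different proximal-only sites and 1 distal-only site lay within 50 kb of the 19 listed genes. The proximal-only sites were 20.4% of the 54 proximal intervals there, beside the near-gene reference of 6095 of 42285, and the difference was not tested. In terms of genes, 9 (47.4%, 27.3 to 68.3) had a proximal-only site and 5 (26.3%) the distal-only site. None of the proximal-only sites was near Hoxd3 to Hoxd13 or Evx2, whereas the distal-only site was near Evx2 and Hoxd10 to Hoxd13. Chn1, in the flanks, had 4, the strongest 3896 bp before its TSS with 10.32, a motif of 18.35 bits and peaks in delHoxd(8-13)d11lac (7.76) and delHoxd(attP-rel5)d9lac (7.22). Atf2 (7.92), Lnpk (5.81), Hoxd1 with Mtx2 (6.41), and Hnrnpa3 with Nfe2l2 (4.12) had further ones, and Atp5g3 and Agps complete the genes with a site.

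In the HoxA, HoxB and HoxC clusters, 17 of 30 genes (56.7%, 39.2 to 72.6) had a proximal-only and 5 (16.7%) a distal-only site, but only 5 and 2 different sites were behind this. The 5 proximal-only sites were 11.6% of the 43 proximal intervals there, beside the near-gene reference of 6095 of 42285. The strongest was in Hoxc6 (11.27). A site in a UTR of Hoxa11, 2256 bp before Hoxa10, had 7.11 and was within 50 kb of 8 HoxA genes.

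In the lists of differentiating tissue, chondrogenesis and joint genes had a proximal-only site at 15 of 25 (60.0%, 40.7 to 76.6) and a distal-only site at 10 (40.0%). These included Hapln1, a cartilage link protein (9.98 at the promoter, with RAD21 at 6.11), Gdf5, a signal of joints (7.49, in the neighbouring Cep250), and Col2a1, the main cartilage collagen (7.02), where a motif of 15.9 bits and a delHoxd(8-13)d11lac peak (10.49) were present. The 19 different proximal-only sites of this list were 12.7% of the 150 proximal intervals near its genes, beside the near-gene reference of 6095 of 42285. Skeletal muscle had 8 of 27 (29.6%, 15.9 to 48.5) and 7 (25.9%), among them Pax7, a regulator of muscle progenitors (11.02, in its intron). Tendon and connective tissue had 5 of 18 (27.8%) and 8 (44.4%), among them Col1a1 (4.12) and Kera (3.6 at the promoter).

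Markers of other cell types that limb tissue can hold were also counted. Blood and macrophage genes had a proximal-only site at 10 of 15 (66.7%, 41.7 to 84.8) and a distal-only site at 2 (13.3%), but 4 of the 10 are beta-globin genes that share 1 weak site (2.63), and 10 and 2 different sites were involved. The 10 proximal-only sites were 14.1% of the 71 proximal intervals near these genes, beside the near-gene reference of 6095 of 42285. The strongest were near Csf1r (15.78), in the adjoining Pdgfrb, and near Tal1, in Stil (13.52). Endothelium and pericyte genes had 8 of 19 (42.1%) in both, nerve and Schwann cell genes 8 of 18 (44.4%) and 6 (33.3%), and surface ectoderm genes 7 of 17 (41.2%) and 6 (35.3%). The makeup of the dissected tissue was not measured, and its part in these counts was not tested.

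In the remaining lists, housekeeping genes had a proximal-only site at 10 of 18 (55.6%) and a distal-only site at 9 (50.0%), and CTCF and cohesin genes at 8 of 15 (53.3%) and 7 (46.7%). Imprinted genes, at which CTCF binding can be specific to a parental allele, had 5 of 21 (23.8%, 10.6 to 45.1) and 1 (4.76%). The strongest of these were 13584 bp before Gnas (17.05, motif 15.64 bits, no mutant peak) and 14373 bp from Rtl1 (16.08, motif 19.67 bits, peaks in delHoxd(8-13)d11lac, 7.66, and delHoxd(attP-rel5)d9lac, 4.35). The Slc22a18 intron near Cdkn1c had 12.04 and a motif of 17.4 bits. The list of clustered protocadherins, whose promoters are known CTCF targets, held genes of the alpha cluster only. Its 14 matched entries, with Pcdha11 repeated and Pcdha10 missing, had neither kind of site.

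**Figure D5:**
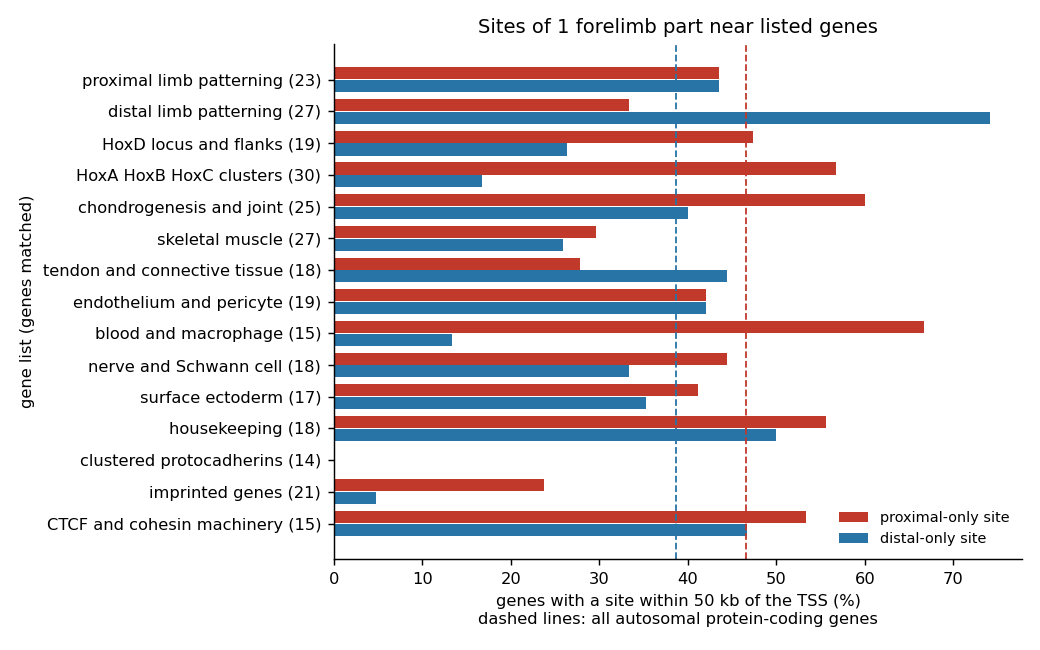
Share of the genes of each list (horizontal axis, percent; genes matched in brackets) with a proximal-only (red) or distal-only (blue) site within 50 kb of the TSS; dashed lines are the shares over all 20807 autosomal protein-coding genes, 46.6% and 38.7%. Distal limb patterning has 33.3% and 74.1%, blood and macrophage 66.7% and 13.3%. Genes of a list can share sites. Of the proximal intervals near these 2 lists, 7.76% and 14.1% were proximal-only. Within 50 kb of any protein-coding TSS, predicted genes left out, 6095 of 42285 were.

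Proximal-only sites were spread over every autosome, between 4.78 per Mb on chromosome 13 and 6.17 per Mb on chromosome 4. As a share of proximal intervals they ranged from 15% on chromosome 11 to 22.8% on chromosome 3. Of 4916 windows of 500 kb, 486 had none, the mean was 2.72 and the variance 3.52. The fullest window, on chromosome 8 from 19500001 to 20000000, held 13 and includes the TSS of 4930467E23Rik, a gene known only by its clone name. A window on chromosome 1 from 55000001 to 55500000 held 12 against 1 distal-only site and 13 sites of all 3 lists; it contains Hspd1 and Hspe1, the mitochondrial chaperonins that share a promoter, Sf3b1, a splicing factor, Boll, Coq10b, Mars2, Mob4, Plcl1 and Rftn2. A further 3 held 12: on chromosome 11 around Top3a, Flii, Llgl1, Alkbh5 and Shmt1 (9 distal-only), on chromosome 6 around Aak1, Anxa4, Pcbp1 and Mxd1 (2 distal-only), and on chromosome 9 around Nedd4, Rfx7, Pygo1 and Prtg (5 distal-only). Per gene, 6637 had a single site within 50 kb, and 5 had 6, namely Acot11, Naca, Prim1, Rab3gap1 and 4930467E23Rik.

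In relation to each other and to the constant sites, a proximal-only site had its next neighbour of the same kind a median of 57969 bp away, and its nearest site of all 3 lists 28921 bp away. For distal-only sites the latter distance was 25882 bp, and for sites of both forelimb parts without a whole-limb peak 16223 bp. The 2807 proximal-only sites within 10 kb of a site of all 3 lists had a motif at 58.2% (56.4 to 60.1), against 34.9% (34.0 to 35.8) for those farther away. The nearer sites were also stronger, with a median −log10 q of 5.12 against 3.6, and were not compared at equal strength. The RAD21 share of nearer and farther sites was the same within counting error, at 4.95% (4.21 to 5.82) and 4.75% (4.36 to 5.17).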

How the data were processed

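The authors deposited 1 narrowPeak list per library. Per the submitters' processing notes, cutadapt, Bowtie2, MACS2 and build mm10 were used; versions, thresholds and controls are not given in the sources used here. In the deposited lists column 5 is a score, column 7 a fold enrichment (ratio) at the summit, and columns 8 and 9 are −log10 p and −log10 q values.

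Rows of the same interval were merged, keeping the strongest summit. Overlap means at least 1 bp, positions are 1-based, and no interval ended beyond its chromosome on GRCm38.p6. Summits were annotated with GENCODE M21 in the order TSS within 1 kb, coding exon, UTR, other exon, intron, intergenic. The 19-bp motif matrix was learned from 2000 summits, and the threshold was 6.26 bits. Masking is that of the reference. Intervals are Wilson's, at 95% (Python 3.11.15, scipy 1.17.1). Interval and motif code was tested on simulated data.

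The sites, 15 gene lists (318 genes) and alternatives were chosen with earlier results of these data known. Named sites are the 15 strongest with a TSS within 50 kb, the 10 strongest with RAD21, the 10 strongest promoters, those in all 4 mutant CTCF lists, up to 4 genes per list, and the fullest 5 windows of 500 kb. Any site, gene or motif word outside this rule was picked with its values in view. The 2 H3K27ac samples were not analysed here.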

Additional observations from a re-analysis of the deposited data

How the results depend on the processing

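No paired analysis was possible because each group has 1 library. Restricting the sites to a −log10 q of at least 10 left 643 and moved every share: whole-limb RAD21 to 8.4%, distal RAD21 to 0.311%, distal SMC1 to 2.8%, any mutant CTCF to 58.8%, motif to 76.5%, promoters to 14.3%, intergenic sites to 36.9% and genes with a site to 4.05%. With a limit of 0 bp in place of 1 kb, RAD21 was 5.22%, promoters 8.72% and genes 50.0%. With 5 kb, distal RAD21 was 0.136%, mutant CTCF 17.2%, motif 36.0%, promoters 7.01%, intergenic sites 50.1% and genes 37.4%. With X and Y, mutant CTCF was 17.4%, motif 38.0% and intergenic sites 50.6%. Requiring 50% of a site to be covered gave 4.06% for whole-limb RAD21, 0.142% and 0.449% for distal RAD21 and SMC1, and 17.3% for mutant CTCF. Summits within 200 bp gave 4.38% for whole-limb RAD21. Any peak within 1 kb gave 6.35% for whole-limb RAD21 and 19.4% for mutant CTCF. Any part of the interval gave 8.81% promoters. Genes with a site were 12.8% at 10 kb and 71.0% at 100 kb. The other alternatives left each value within its interval or, for the site count, within 1.5 times. Without replicates, and with read depth unknown, an interval missing from a list is not shown to be unbound, and 65.9% of the sites are below a −log10 q of 5.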
